A study of Homo sapiens with 24 samples.

Results

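The insulin-like growth factor binding proteins IGFBP2, IGFBP3, IGFBP4, IGFBP5, IGFBP6 and IGFBP7 were followed in erlotinib-resistant and erlotinib-sensitive cells of 4 established squamous cell carcinoma lines of the head and neck. All array probes annotated to these 6 symbols were taken, which gave 8 probes of the 47231 on the array: 2 for IGFBP3, 2 for IGFBP5 and 1 for each of the other 4 genes. All 8 passed the filter on low signal, which 19171 probes with 1 gene symbol passed in all, for 14077 genes.

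Insulin-like growth factor binding proteins are secreted proteins that bind the growth factors IGF1 and IGF2, carry them in blood and tissue fluid, and either withhold them from or deliver them to the type I IGF receptor. Proteases cut the binding proteins and set the growth factors free. Several family members also bind matrix, integrins or other receptors and act without IGF. The receptor they control signals through insulin receptor substrates to PI3K and ERK. The epidermal growth factor receptor EGFR also signals to PI3K and ERK, and erlotinib inhibits the kinase of EGFR.

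RNA was measured on Illumina beadchips in 8 groups of 3 arrays. The groups were resistant and sensitive SCC-25 cells, resistant and sensitive Cal-27 cells, resistant and sensitive FaDu cells, and resistant and sensitive SQ20B cells. The first pair of lines are tongue tumours, FaDu is a pharynx tumour and SQ20B a larynx tumour, and the sensitive cells are the parental cultures. Resistant cells were grown in medium with erlotinib, and every culture, resistant or sensitive, received 0.01% DMSO as vehicle for 48 h before harvest. The labels do not say whether erlotinib was present in those hours. The labels name 1 resistant culture per line and only number the replicates. The p-values therefore measure the spread between these arrays, which may be technical, and resistance cannot be told apart from any other difference between a line's cultures. SCC-25 and Cal-27 were deposited in one table and FaDu and SQ20B in another, normalized separately, so levels are compared only within a table. The level of one probe is not comparable with that of another.

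The arrays were alike in quality. The median bead signal was 102.64 to 118.72, between 18664 and 21271 probes were detected per array, and arrays of a group correlated at 0.991 to 0.995 over the tested probes, against 0.881 to 0.977 between groups. Of 11 squamous epithelial markers, 8 had a named probe, and all 8 were detected in every group except KRT14, which was detected in neither resistant nor sensitive SQ20B cells. The summed signal of 9 fibroblast markers was 6344 to 8389 in resistant and 1000.0 to 1069 in sensitive SCC-25 cells, with 6 of 9 detected in both. It was 729 to 860 in resistant SQ20B cells, where LUM and COL3A1 were detected on all 3 arrays, and 56.8 to 66.1 in sensitive SQ20B cells, where none was. In FaDu none of the 9 was detected on all 3 arrays of either group, and the sum was 56.1 to 90.9 in resistant and 55.6 to 71.6 in sensitive cells. In Cal-27 the sum was 90.0 to 102.9 in resistant and 116.4 to 159.5 in sensitive cells, with 2 of 9 detected on all 3 arrays of each group. These were COL1A2 and PDGFRB in resistant cells and COL1A1 and COL1A2 in sensitive cells.

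Shown here are the promoters of the 3 genes with the largest change in any 1 line, IGFBP5, IGFBP3 and IGFBP6. The place of IGFBP6 before IGFBP7 rests on its change of -2.59 in Cal-27, against 2.23 for IGFBP7 in FaDu. With other processing or 1 array left out these were -3.251 to -1.332 and 1.924 to 2.301, so that order is not fixed. IGFBP5 and IGFBP3 rose in both FaDu and SQ20B, and IGFBP6 moved in opposite directions in those lines. Each promoter is the run of 250 bases that ends at the base before the annotated start in RefSeq on GRCh38.p14. It is written on the strand of the gene. IGFBP5 is at chr2:216695550-216695799 on the minus strand, IGFBP3 at chr7:45921273-45921522 on the minus strand, and IGFBP6 at chr12:53097417-53097666 on the plus strand. Capitals mark matches to the searched motifs on either strand.
IGFBP5: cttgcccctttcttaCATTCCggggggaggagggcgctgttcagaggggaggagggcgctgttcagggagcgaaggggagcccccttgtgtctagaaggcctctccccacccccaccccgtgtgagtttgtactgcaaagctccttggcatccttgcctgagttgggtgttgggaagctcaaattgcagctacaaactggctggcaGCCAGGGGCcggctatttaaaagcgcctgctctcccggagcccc
IGFBP3: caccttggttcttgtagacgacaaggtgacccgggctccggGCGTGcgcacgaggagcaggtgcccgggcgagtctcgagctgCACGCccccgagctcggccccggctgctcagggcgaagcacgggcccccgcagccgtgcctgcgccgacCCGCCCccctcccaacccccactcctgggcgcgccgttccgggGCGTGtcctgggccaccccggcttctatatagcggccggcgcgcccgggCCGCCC
IGFBP6: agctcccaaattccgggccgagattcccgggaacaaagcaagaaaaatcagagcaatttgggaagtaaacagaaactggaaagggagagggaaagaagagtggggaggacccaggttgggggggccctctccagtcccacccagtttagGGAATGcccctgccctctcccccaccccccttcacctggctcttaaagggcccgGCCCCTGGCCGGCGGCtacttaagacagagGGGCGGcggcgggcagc
These motifs were searched on both strands: TATAAA, known as the core promoter box, GGGCGG, bound by Sp factors, CCAAT, bound by NF-Y, TGANTCA, bound by Fos and Jun, GCCNNNGGC, bound by TFAP2 factors, GCGTG, the core of the aryl hydrocarbon receptor site, and GGAATG, bound by TEAD factors. The IGFBP5 window held 1 GCCNNNGGC, present in 19.8% of all 35116 windows of this length, and 1 GGAATG, present in 11.9%. The IGFBP3 window held 2 GGGCGG, a motif present in 42.6% of windows, and 3 GCGTG, present in 32.2%. The IGFBP6 window held 1 GGGCGG, 2 overlapping GCCNNNGGC and 1 GGAATG. The 3 windows held none of the other 3 motifs, which were present in 10.7% (TATAAA), 32% (CCAAT) and 6.57% (TGANTCA) of windows. CpG dinucleotides numbered 32 in the IGFBP3 window, 9 in that of IGFBP6 and 8 in that of IGFBP5, against a median of 11 over all windows. Windows were found for 5 of the 6 genes by symbol, and IGFBP7 had none. IGFBP2 and IGFBP5 are neighbouring protein-coding genes on chromosome 2, and IGFBP3 neighbours IGFBP1 on chromosome 7. These matches describe letters only.

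IGFBP5, which binds both growth factors, joins the ternary complex of serum and attaches to matrix, had 2 of the 3 largest rises among the 19171 tested probes in FaDu. Its deposited bead signal at ILMN_1750324 was 2393, 1932 and 1799 in resistant FaDu cells, against 115, 123 and 130 in sensitive FaDu cells, close to the median of the array. Normalized levels (log2 intensity) were 11.11, 10.98 and 11.07 in resistant FaDu cells and 4.63, 5.17 and 5.40 in sensitive FaDu cells. The groups lay far apart, and the sensitive cells were detected on only 2 of 3 arrays. The change, resistant minus sensitive, was 5.99 ± 0.17 on the log2 scale (SE, n = 3 each; limma adjusted p = 1.22e-10), which ranked 2 from the top. At the second probe, ILMN_2132982, resistant FaDu cells had 10.22, 10.30 and 10.04, and sensitive FaDu cells 4.30, 4.36 and 4.50. That probe was not detected in any sensitive array, so the rise is at least 40.5-fold (limma adjusted p = 3.02e-11). ILMN_2132982 passed the filter only through the resistant FaDu and SQ20B arrays, where it was high.

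In SQ20B, IGFBP5 rose as well. Levels at ILMN_1750324 were 8.30, 8.68 and 8.63 in resistant and 4.68, 4.56 and 4.35 in sensitive SQ20B cells. No sensitive array was above background, so the rise is at least 12.3-fold there (limma adjusted p = 1.22e-09) and at least 5.09-fold at ILMN_2132982 (limma adjusted p = 1.74e-09), where resistant SQ20B cells had 6.93, 7.36 and 7.49. The fitted changes of the 2 probes were 4.01 ± 0.17 and 2.94 ± 0.13 in SQ20B (SE, n = 3 each). They depend on how background is treated: without background correction they were 2.11 and 1.31 in SQ20B, and 4.20 and 3.64 in FaDu. The fitted changes differed between FaDu and SQ20B at ILMN_1750324 (limma adjusted p = 5.27e-05) and at ILMN_2132982 (limma adjusted p = 2.06e-07), but the size of that difference is not fixed because sensitive cells were at background. The resistant levels of the 2 lines did not overlap.

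In the tongue lines IGFBP5 stayed near background in resistant and sensitive cells. ILMN_2132982 was detected on none of those 12 arrays, and ILMN_1750324 on 2 of 3 resistant and 1 of 3 sensitive SCC-25 arrays and on none of 3 resistant and 1 of 3 sensitive Cal-27 arrays. Changes at ILMN_1750324 were 0.10 ± 0.20 in SCC-25 and -0.24 ± 0.20 in Cal-27 (SE, n = 3 each; limma adjusted p = 0.763 and 0.418). A signal this low limits what change could be seen in either line. Over FaDu and SQ20B, resistant FaDu cells had the highest level at both probes and resistant SQ20B cells the next, while the sensitive cells of the 2 lines overlapped. In these bulk samples, more cells with the transcript and more transcript per cell cannot be told apart.

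**Figure D1:**
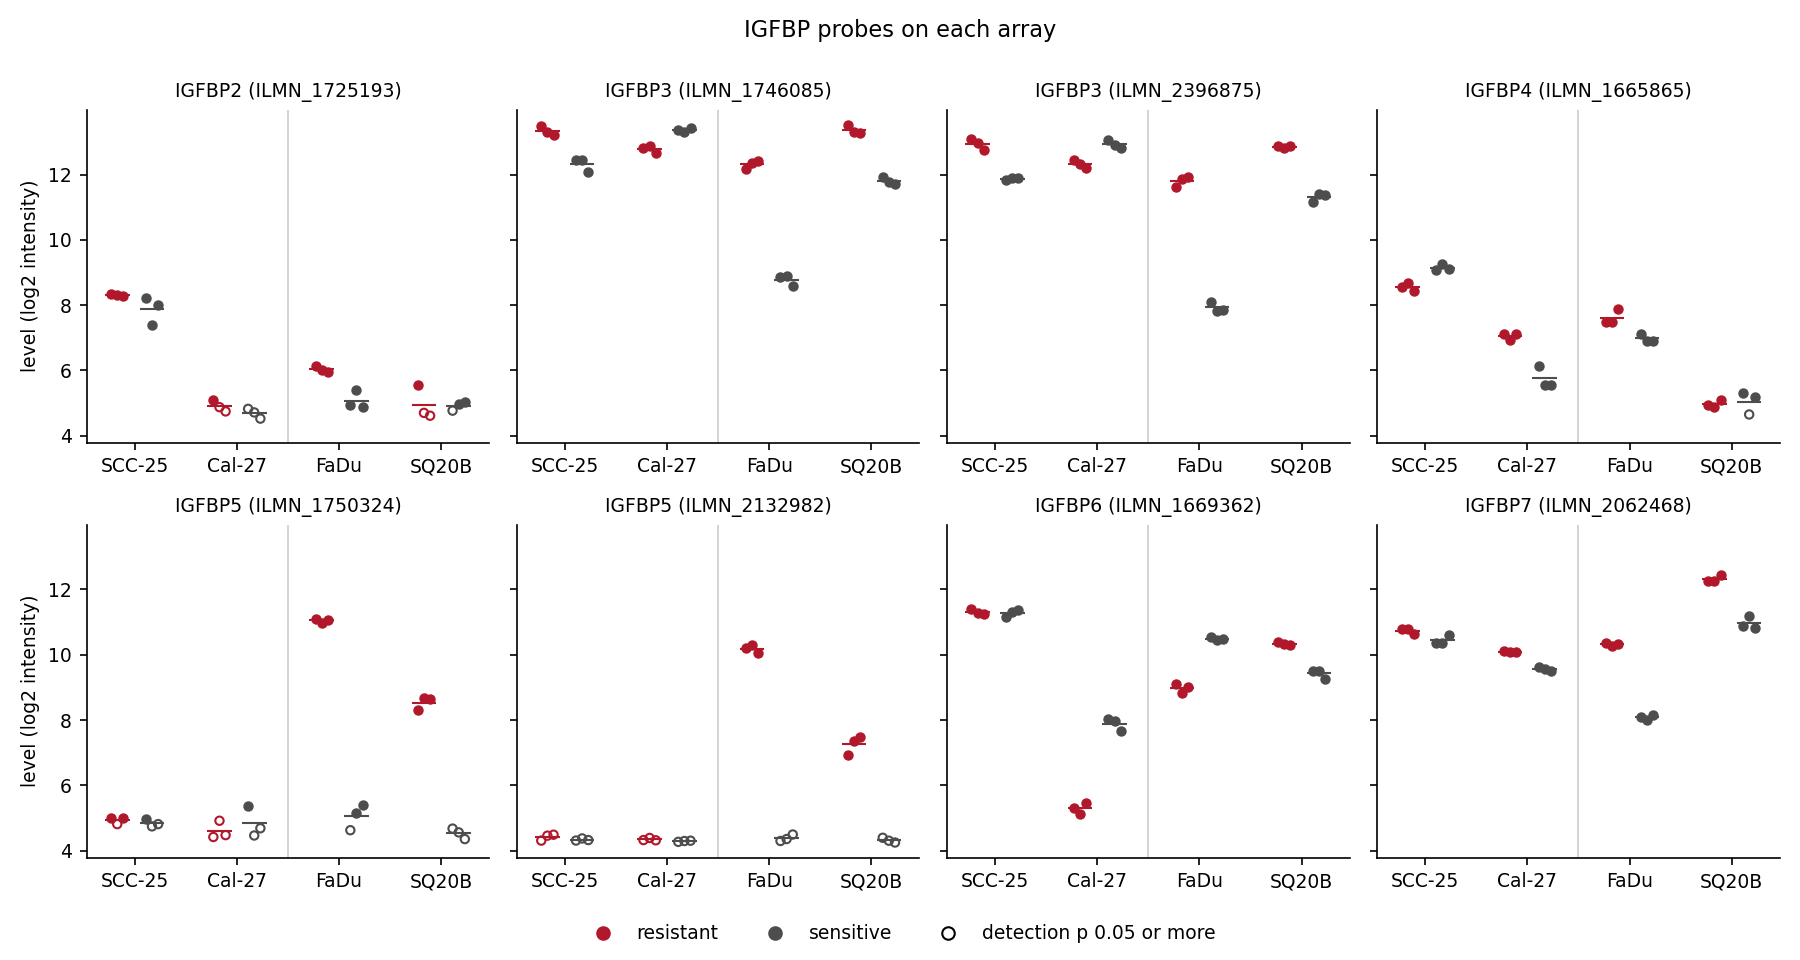
Level (log2 intensity) of each IGFBP probe on each of the 24 arrays, with the mean of each group as a line, resistant cells in red to the left of sensitive cells in grey. Open circles are arrays with a detection p of 0.05 or more, and the vertical line parts the 2 tables, whose scales differ. IGFBP5 was detected on all 3 resistant arrays of FaDu and SQ20B at both probes, and ILMN_2132982 was detected nowhere else.

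IGFBP3, the main carrier of IGF in serum, was detected on all 24 arrays at both probes and changed in all 4 lines. At ILMN_1746085 resistant FaDu cells had 12.18, 12.35 and 12.42, against 8.86, 8.89 and 8.58 in sensitive FaDu cells. All resistant arrays lay above all sensitive arrays, and the change of 3.54 ± 0.11 was 11.6-fold (SE, n = 3 each; limma adjusted p = 2.27e-10). ILMN_2396875 gave 3.87 ± 0.11, a 14.6-fold rise. In SQ20B the levels at ILMN_1746085 were 13.52, 13.32 and 13.28 in resistant and 11.93, 11.77 and 11.71 in sensitive cells, a rise of 1.57 ± 0.11 (limma adjusted p = 1.28e-07).

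SCC-25 also had more IGFBP3 in resistant cells. Levels at ILMN_1746085 were 13.48, 13.31 and 13.20 in resistant and 12.43, 12.43 and 12.08 in sensitive SCC-25 cells, and the rise was 1.01 ± 0.11, or 2.02-fold (SE, n = 3 each; limma adjusted p = 3.08e-05). Cal-27 went the other way. Resistant Cal-27 cells had 12.81, 12.88 and 12.66, against 13.37, 13.30 and 13.42 in sensitive Cal-27 cells, a change of -0.58 ± 0.11 (limma adjusted p = 0.00177). The second probe agreed in sign in each line, with 1.53 ± 0.11 in SQ20B, 1.07 ± 0.11 in SCC-25 and -0.61 ± 0.11 in Cal-27.

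The lines with the lower parental level were those with the higher change within each table. At ILMN_1746085 the difference between sensitive cells was -1.05 ± 0.11 for SCC-25 minus Cal-27 and -3.02 ± 0.11 for FaDu minus SQ20B (limma adjusted p = 4.54e-06 and 1.88e-10). Resistant SCC-25 and sensitive Cal-27 cells overlapped at the top of their table. In the other table the order was resistant SQ20B, resistant FaDu, sensitive SQ20B and sensitive FaDu, with no overlap between neighbours. With 2 lines in each table, the relation of level and change was not tested.

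IGFBP7 is a family member of low IGF affinity that is found in basement membranes and vessels. It was the only one of the 6 genes called higher in resistant cells of all 4 lines. How often a tested probe of any gene had such calls was not counted, so this is description and no sign that IGFBP7 is unusual. Levels in FaDu were 10.37, 10.26 and 10.32 in resistant and 8.11, 7.99 and 8.15 in sensitive cells, a rise of 2.23 ± 0.10, or 4.70-fold (SE, n = 3 each; limma adjusted p = 5.49e-09). In SQ20B they were 12.27, 12.27 and 12.44 in resistant and 10.89, 11.18 and 10.83 in sensitive cells, a rise of 1.36 ± 0.10 (limma adjusted p = 2.03e-07). The resistant arrays lay clear of the sensitive arrays in both lines.

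The rises of IGFBP7 in the tongue lines were smaller. Resistant Cal-27 cells had 10.11, 10.07 and 10.08, against 9.63, 9.57 and 9.51 in sensitive Cal-27 cells (0.52 ± 0.09, limma adjusted p = 0.000934). Resistant SCC-25 cells had 10.79, 10.80 and 10.63, against 10.36, 10.37 and 10.62 in sensitive SCC-25 cells, so the lowest resistant array (10.63) was next to the highest sensitive array (10.62). The change of 0.29 ± 0.09 passed the threshold in SCC-25 (limma adjusted p = 0.0335), but it lost the call under 7 of 17 alternatives. Among them was leaving out replicate 1 or 2 of the resistant or of the sensitive cells, which gave 0.248 to 0.265 (limma adjusted p = 0.0961 to 0.108). With median scaling it was 0.218 (limma adjusted p = 0.143). The rises in SCC-25 and Cal-27 differed by -0.23 ± 0.13, which did not pass (limma adjusted p = 0.230, 95% interval -0.51 to 0.06).

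IGFBP6, which prefers IGF2, fell in Cal-27 and FaDu and rose in SQ20B. Levels were 5.29, 5.13 and 5.46 in resistant Cal-27 cells, against 8.04, 7.96 and 7.67 in sensitive Cal-27 cells. The groups were far apart, all 6 arrays were above background, and the change of -2.59 ± 0.12 was the 39th lowest of all probes (SE, n = 3 each; limma adjusted p = 6.11e-09). The resistant level is close to background, and without background correction the change was -1.33.

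In FaDu, IGFBP6 had 9.10, 8.84 and 9.01 in resistant and 10.54, 10.44 and 10.48 in sensitive cells, a change of -1.50 ± 0.10 (limma adjusted p = 1.20e-07). In SQ20B it had 10.38, 10.33 and 10.29 in resistant and 9.51, 9.51 and 9.27 in sensitive cells, a rise of 0.91 ± 0.10 (limma adjusted p = 4.27e-06). Neither pair of groups overlapped. In SCC-25, which had the highest IGFBP6 levels of its table, resistant cells had 11.40, 11.28 and 11.24 and sensitive cells 11.16, 11.30 and 11.39. These overlapped, and the change was 0.03 ± 0.12 (limma adjusted p = 0.905, 95% interval -0.23 to 0.28).

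IGFBP4, which mostly holds IGF back and is cut by the protease PAPPA, rose in Cal-27 and FaDu and fell in SCC-25. Resistant Cal-27 cells had 7.10, 6.93 and 7.12, against 6.15, 5.57 and 5.56 in sensitive Cal-27 cells, a change of 1.29 ± 0.14 (SE, n = 3 each; limma adjusted p = 1.60e-05) that was 0.617 without background correction. In FaDu the levels were 7.47, 7.50 and 7.89 in resistant and 7.12, 6.91 and 6.91 in sensitive cells (0.64 ± 0.16, limma adjusted p = 0.00792). Resistant SCC-25 cells had 8.54, 8.68 and 8.44, all below the 9.07, 9.25 and 9.10 of sensitive SCC-25 cells (-0.59 ± 0.14, limma adjusted p = 0.00803). In SQ20B the gene was near background, with 4.93, 4.88 and 5.11 in resistant and 5.32, 4.65 and 5.18 in sensitive cells, and a change of -0.08 ± 0.16 that did not pass (limma adjusted p = 0.741).

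IGFBP2, a binding protein with an integrin-binding sequence, was called in FaDu only, and its change in SCC-25 lay near the threshold. Resistant FaDu cells had 6.15, 6.02 and 5.95, against 4.93, 5.39 and 4.87 in sensitive FaDu cells, and the rise was 0.98 ± 0.21 (SE, n = 3 each; limma adjusted p = 0.00267). It was 0.343 without background correction and 1.40 in the authors' processed values, with a call in each. In SCC-25, resistant cells had 8.35, 8.31 and 8.29 and sensitive cells 8.21, 7.39 and 7.99, and the change of 0.45 ± 0.17 did not pass (limma adjusted p = 0.0700). Leaving out 1 array at a time moved it between 0.214, without the sensitive replicate 2, and 0.624, without the sensitive replicate 1, where it passed (limma adjusted p = 0.0159).

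In Cal-27 and SQ20B IGFBP2 was near background, detected on 1 of 3 resistant arrays of each line and on none of 3 sensitive Cal-27 and 2 of 3 sensitive SQ20B arrays. The changes were 0.21 ± 0.17 in Cal-27 and 0.03 ± 0.21 in SQ20B, neither past the threshold (limma adjusted p = 0.398 and 0.924). Its parental level was at least 7.57-fold higher in SCC-25 than in Cal-27, where no sensitive array was above background (limma adjusted p = 5.96e-09).

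**Figure D2:**
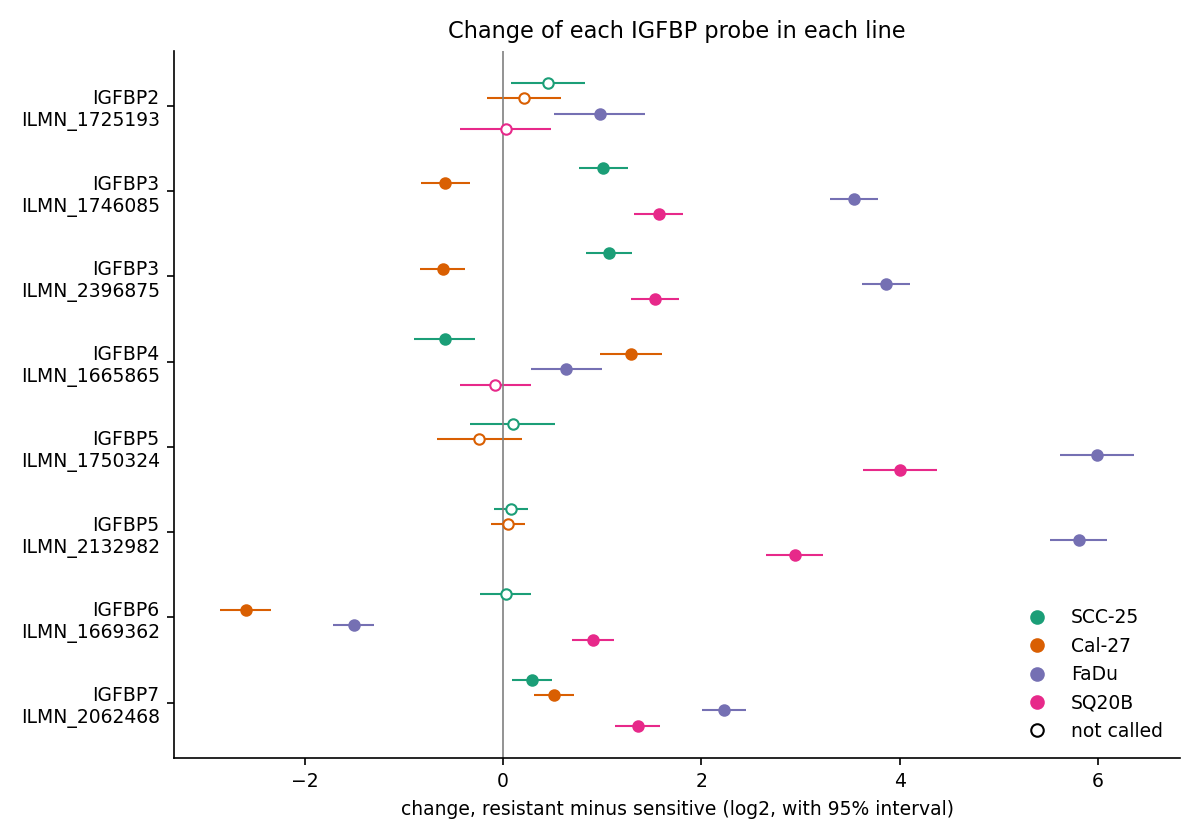
Change of each IGFBP probe, resistant minus sensitive (log2), with its 95% interval from limma, in the 4 lines (n = 3 arrays each). Filled points passed an adjusted p of 0.05. IGFBP5 reached 5.99 in FaDu and 4.01 in SQ20B, IGFBP7 lay above 0 in all 4 lines, and IGFBP6 lay below 0 in Cal-27 and FaDu and above it in SQ20B.

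Counted by line, 4 of the 8 probes were called in SCC-25, where 28% of all tested probes were. There 3 were higher in resistant cells, against 13.5% of all probes, and 1 was lower, against 14.5%. With median scaling, the share of higher probes among all called in SCC-25 was 36.0%, against 48.4% here. In Cal-27, 5 of 8 were called (31.1% of all probes), 2 of them higher (14.8%) and 3 lower (16.3%). The median change of the 8 probes was 0.20 in SCC-25 and -0.09 in Cal-27, beside -0.0048 and -0.02 over all tested probes.

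In FaDu all 8 were called, beside 38.4% of all probes, with 7 higher (18.3%) and 1 lower (20.1%). In SQ20B 6 were called, beside 51.8%. All 6 were higher (25.9%) and 0 were lower (25.9%), also at an unadjusted p under 0.05 in limma. The median change of the 8 was 2.89 in FaDu and 1.45 in SQ20B, beside -0.03 and -0.01 over all tested probes. The 8 probes stand for 6 genes, so IGFBP3 and IGFBP5 enter these counts and medians with 2 probes each. Among the 8, ILMN_2132982 passed the filter only through the resistant FaDu and SQ20B arrays, where it was high. The genes were also chosen with earlier results of these data known. The counts beside the shares, here and between lines, are therefore description and not a test of the family.

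The changes differed between lines. Between SCC-25 and Cal-27, 4 of 8 probes differed in their change, beside 30.6% of all probes, and between FaDu and SQ20B all 8 did, beside 30.6%. IGFBP4 did not pass for that second pair with median scaling (limma adjusted p = 0.0508). In the values used here IGFBP6 differed most in the first pair, by 2.62 ± 0.17 for SCC-25 minus Cal-27 (limma adjusted p = 1.87e-07). Under 2 alternatives, of background and of scaling, that difference was 1.357 to 2.527. The 2 IGFBP3 probes then had 1.559 to 1.574 and 1.623 to 1.653, and IGFBP4 had -2.017 to -1.106. The first place of IGFBP6 therefore depends on the processing. The difference for FaDu minus SQ20B was -2.41 ± 0.14 for IGFBP6 and 1.97 ± 0.16 for IGFBP3 at ILMN_1746085 (limma adjusted p = 5.94e-08 and 1.52e-06). The sensitive cells differed in 6 of 8 probes between SCC-25 and Cal-27, beside 53% of all probes, and in 6 of 8 between FaDu and SQ20B, beside 52.9%. For the second pair the IGFBP5 probe ILMN_1750324 did not pass without background correction (limma adjusted p = 0.0575). The parental difference was -2.89 ± 0.10 for IGFBP7 in FaDu minus SQ20B and 3.39 ± 0.12 for IGFBP6 in SCC-25 minus Cal-27 (limma adjusted p = 1.21e-10 and 8.72e-11).

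With the line as the replicate, no probe was called for the mean change of the 4 lines (0% of 19171, limma). At an unadjusted p under 0.05 there were 2895 probes, among them 1 of the 8, that of IGFBP7, with a mean change of 1.10 ± 0.33 (SE over the lines; limma adjusted p = 0.281). The mean change of IGFBP6 was -0.79 ± 0.57.

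Fibroblasts also make IGFBP3 to IGFBP7. The rises of IGFBP3 and IGFBP7 in SCC-25, and of IGFBP3, IGFBP5, IGFBP6 and IGFBP7 in SQ20B, stood in the lines where the fibroblast marker sums above were higher in resistant cells, mainly through DCN, LUM and COL3A1 in SCC-25 and LUM in SQ20B. PDGFRA, PDGFRB and THY1 were undetected on all SCC-25 and SQ20B arrays, and DCN on all SQ20B arrays. COL1A2 went the other way, at a mean log2 level of 5.33 in resistant and 6.16 in sensitive SCC-25 cells. In SQ20B it was near background, at 4.79 in resistant and 4.99 in sensitive cells. In Cal-27, where IGFBP4 and IGFBP7 rose, the fibroblast sum was lower in resistant cells. PDGFRB went against that sum, at a mean log2 level of 5.153 in resistant and 4.423 in sensitive Cal-27 cells. It was detected on all 3 resistant and on none of the sensitive arrays there. The part of the fibroblast markers in these results was not tested. In FaDu 7 of the 9 fibroblast markers were undetected on all 6 arrays, and the other 2, COL1A1 and COL1A2, were detected on 2 and 1 of 3 resistant arrays and on 1 and 1 of 3 sensitive arrays. Of 6 endothelial markers, only CDH5 was detected in Cal-27, at 9.98 in resistant and 6.42 in sensitive cells (mean log2 level, n = 3 each). In FaDu CDH5 was 8.41 in resistant and 5.86 in sensitive cells, VWF was 5.21 in resistant and 6.25 in sensitive cells, PECAM1 was detected on 1 of 3 resistant arrays, and KDR, TEK and CLDN5 were undetected. In SQ20B CDH5 was 8.079 in resistant and 7.929 in sensitive cells, and VWF was 6.451 in resistant and 5.97 in sensitive cells. PECAM1 was detected on 1 of 3 sensitive SQ20B arrays. In SCC-25 CDH5 was undetected, PECAM1 was detected on 2 of 3 resistant arrays, and TEK on 1 of 3 arrays of each group. The summed signal of the 8 squamous markers was 16113 to 17193 in resistant and 27171 to 30672 in sensitive Cal-27 cells, where mean levels of 6 of the 8 were lower in resistant cells and those of CDH1 and EPCAM were not. The sum was 14842 to 15645 in resistant and 16659 to 18225 in sensitive FaDu cells. It was 23294 to 27554 in resistant and 32120 to 34850 in sensitive SCC-25 cells. In SQ20B it was 17027 to 17827 in resistant and 16041 to 17279 in sensitive cells. That sum covers opposite changes in mean log2 level. KRT16 (9.734 in resistant and 5.945 in sensitive cells), PERP (11.946 and 10.554) and DSG3 (6.85 and 5.779) were higher in resistant SQ20B cells. KRT5 (9.874 and 11.509) and SFN (9.345 and 10.685) were lower there. In FaDu KRT14 was 5.457 in resistant and 7.831 in sensitive cells, while CDH1 and PERP were higher in resistant cells. Of 6 leukocyte markers, 5 had a named probe, and CD14 and CD68 were detected in every group and CD3E in none. PTPRC was detected on 1 of 3 resistant SCC-25 arrays and on no other array, and LYZ on 0 to 3 arrays of a group. The part of these markers in the IGFBP changes was not tested.

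The growth factors themselves were near background. IGF1, IGF2 and INS were each detected on at most 1 of the 3 arrays in any group and were not tested. Of the 12 ligands, receptors and adaptors listed, 9 were tested. In SCC-25, 2 were higher and 5 lower (median change -0.45); in Cal-27, 4 and 1 (0.05). In FaDu 2 were higher and 2 lower (-0.11), and in SQ20B 4 and 2 (-0.04). Among all tested probes, 13.5% were called higher and 14.5% lower in SCC-25, and 14.8% and 16.3% in Cal-27. These shares were 18.3% and 20.1% in FaDu and 25.9% and 25.9% in SQ20B. The counts of this list and of the lists below are description and were not tested against them. IRS2, the insulin receptor substrate that links the receptor to PI3K, rose in each of the 4 lines. The change was 1.56 ± 0.14 in FaDu, 1.49 ± 0.14 in SQ20B, 1.03 ± 0.14 in Cal-27 and 0.63 ± 0.14 in SCC-25. IRS1 fell in Cal-27 (-1.34 ± 0.13), SCC-25 (-0.67 ± 0.13) and SQ20B (-0.30 ± 0.10).

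IGF2R, the receptor that clears IGF2 and carries lysosomal enzymes, fell in SCC-25 (-0.73 ± 0.10) and rose in Cal-27 (0.65 ± 0.10), FaDu (0.63 ± 0.14) and SQ20B (1.31 ± 0.14). GRB10, an adaptor that restrains insulin and IGF receptors, rose in SQ20B (2.18 ± 0.13) and Cal-27 (2.09 ± 0.11) but fell in SCC-25 (-1.06 ± 0.11) and FaDu (-0.74 ± 0.13). Its other 2 tested probes ranged from -0.07 to 1.34 in Cal-27 and from -0.16 to 1.45 in SQ20B. IGF1R, singled out here for its role after its values were seen, fell in SCC-25 (-0.45 ± 0.13) and rose in Cal-27 (0.37 ± 0.13). It is also 1 of the 4 counted as higher in SQ20B, where its probe was above background on no resistant or sensitive array and gives no fold.

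Of 18 proteases that cut these proteins and their inhibitors, 14 were tested. The tongue lines had 5 higher and 4 lower (SCC-25, median change 0.03) and 5 higher and 0 lower (Cal-27, 0.02; 1 lower at an unadjusted p under 0.05 in limma). FaDu had 4 higher and 2 lower (0.09), and SQ20B 6 higher and 3 lower (0.14). STC2, a secreted inhibitor of PAPPA, was among the largest rises of the list, with 2.67 ± 0.17 for Cal-27 and 2.34 ± 0.10 for SQ20B, and it rose by 0.70 ± 0.10 in FaDu. HTRA1, a secreted serine protease that itself has an IGFBP-type domain, rose in SCC-25 (0.89 ± 0.14), FaDu (1.53 ± 0.08) and SQ20B (2.12 ± 0.08). C1S, the complement protease reported to cut IGFBP5, rose in SQ20B (2.46 ± 0.18), Cal-27 (1.76 ± 0.15), FaDu (0.71 ± 0.18) and SCC-25 (0.63 ± 0.15). Of 4 tested matrix metalloproteinases, 3 fell in SCC-25. MMP9 was at least 6.33-fold lower there, since no resistant array detected it, and MMP3 changed by -2.48 ± 0.15, while MMP2 (-0.31 ± 0.17, limma adjusted p = 0.216) was not called. MMP1 fell in FaDu (-2.20 ± 0.21) and SCC-25 (-1.15 ± 0.22). MMP1 and MMP3 also fell in SQ20B, where no resistant array detected either (limma adjusted p = 4.46e-05 for MMP1 and 0.00073 for MMP3). The plasminogen activator PLAT rose in Cal-27 (2.08 ± 0.10) and SCC-25 (0.74 ± 0.10) and fell in SQ20B (-2.30 ± 0.10).

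Other proteins with an IGFBP-type domain numbered 14, with 13 tested. SCC-25 had 5 higher and 2 lower (median change 0.29) and Cal-27 had 2 higher and 3 lower (-0.0089). FaDu had 5 higher and 0 lower (0.25), and SQ20B 9 higher and 0 lower (0.42), with 0 lower in either line also at an unadjusted p under 0.05 in limma. Among all tested probes, 18.3% were called higher and 20.1% lower in FaDu, and 25.9% higher and 25.9% lower in SQ20B. Among these 13 was IGFBP1, singled out after its values were seen and detected on all 3 resistant and none of the sensitive SQ20B arrays. Its mean log2 levels there, 4.80 in resistant and 4.45 in sensitive cells, were both near background. CCN2, connective tissue growth factor, followed the signs of IGFBP3 in each line. It rose in SQ20B (3.99 ± 0.12), FaDu (3.69 ± 0.12) and SCC-25 (1.22 ± 0.11) and fell in Cal-27 (-0.74 ± 0.11). CCN1, its matrix-bound relative, rose by 1.59 ± 0.09 in FaDu and 1.82 ± 0.09 in SQ20B and fell in Cal-27 (-0.31 ± 0.10) and SCC-25 (-0.28 ± 0.10).

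Binding partners outside the IGF system numbered 13, with 11 tested. SCC-25 had 1 higher and 4 lower (median change -0.14), and Cal-27 had 2 higher and 3 lower (0.01). FaDu had 4 higher and 1 lower (-0.0097), and SQ20B 5 higher and 2 lower (0.32). VTN, vitronectin, a matrix protein that binds IGFBP5, was at least 5.39-fold higher in resistant SQ20B cells, with no sensitive array above background. THBS1, thrombospondin, rose in FaDu (1.90 ± 0.12) and SQ20B (0.71 ± 0.12) and fell in Cal-27 (-0.84 ± 0.09). TMEM219, a membrane receptor for IGFBP3, rose in SQ20B by 1.31 ± 0.10, in FaDu by 0.45 ± 0.10 and in Cal-27 by 0.47 ± 0.16. ITGA5 fell in SCC-25 (-0.70 ± 0.12) and FaDu (-1.07 ± 0.14). PTPRZ1 fell in SCC-25 (-1.02 ± 0.15) and was at least 4.57-fold lower in resistant Cal-27 cells, where no array detected it. Every change called a rise or a fall in these 4 groups passed an adjusted p of 0.05 in limma.

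**Figure D3:**
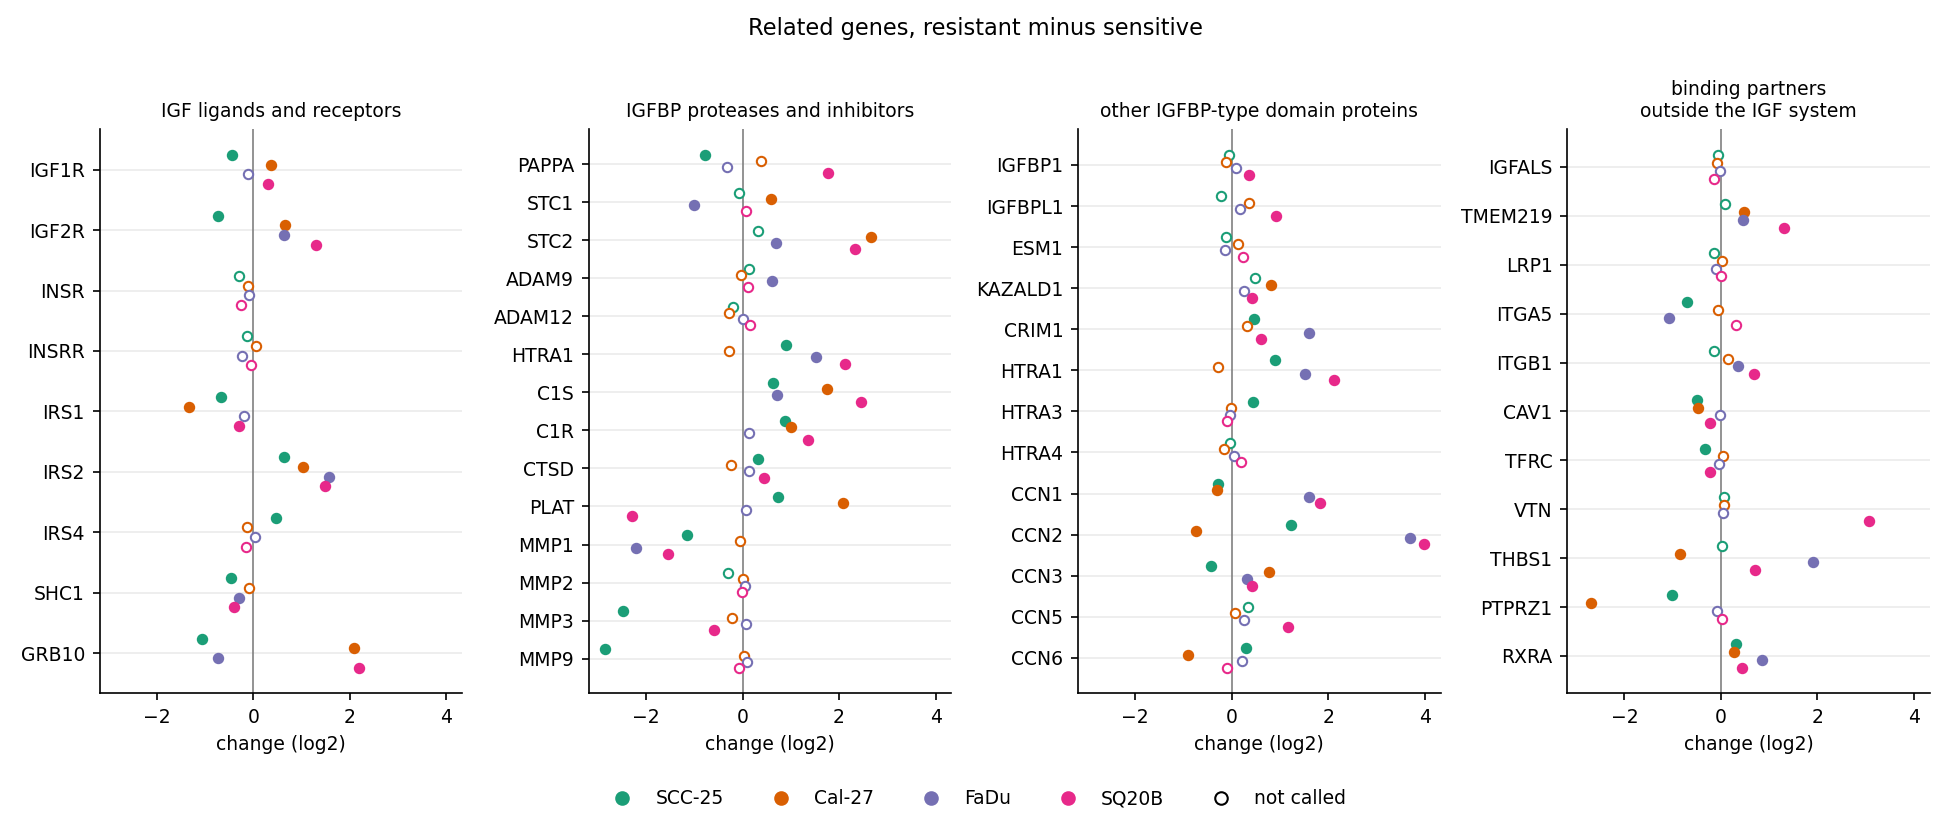
Change, resistant minus sensitive (log2), of each tested gene in 4 related groups at its brightest tested probe, by line. Filled points passed an adjusted p of 0.05 in limma. IRS2 lay above 0 in all 4 lines, and CCN2 reached 3.69 in FaDu and 3.99 in SQ20B.

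The genes whose levels followed each member most closely over the 24 arrays, after the mean of each table was removed, were found among 14076 other genes. They are described by Pearson's r, and the arrays fall into 8 groups, so r mostly reflects the order of group means. The 3 closest to IGFBP5 were SVOPL (r = 0.983), SULF1 (0.966) and SGSM1 (0.947). NAV2 (0.962), GADD45B (0.956) and TGFB2 (0.946) were closest to IGFBP3, and TRIM8 (0.976), NTN4 (0.966) and TMEM230 (0.965) to IGFBP7. IGFBP6 was followed by FOXF2 (0.974), TAGLN2 (0.972) and SPOCK1 (0.970), IGFBP4 by PTK2 (0.967), SEC22C (0.960) and DAD1 (0.947), and IGFBP2 by TFPI2 (0.970), SMIM19 (0.966) and ALDH1A3 (0.965).

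**Figure D4:**
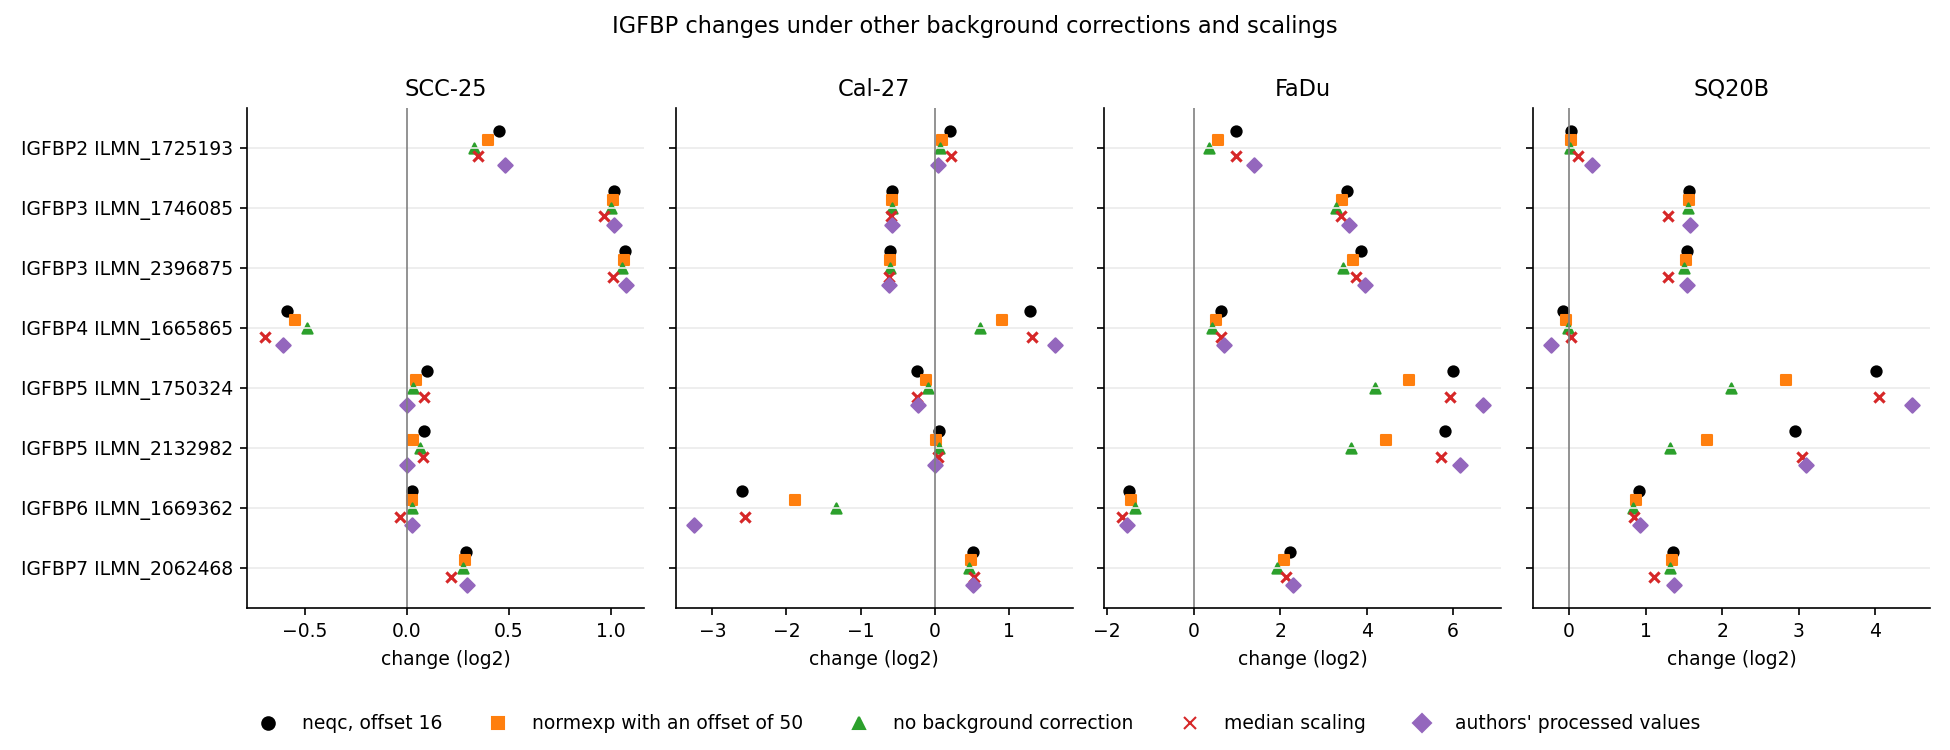
Change of each IGFBP probe, resistant minus sensitive (log2), under 5 ways of correcting background and scaling, by line. Black circles are the values in the text. IGFBP5 in FaDu and SQ20B, IGFBP6 and IGFBP4 in Cal-27 and IGFBP2 in FaDu moved most, and the signs that turned (IGFBP6 in SCC-25, IGFBP4 in SQ20B) belong to changes that were not called.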

How the data were processed

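Each of 24 RNA samples was converted to biotinylated cRNA for an Illumina array, per the labels' protocols. The authors deposited mean bead intensity per probe, without background subtraction or normalization as the values show, in 2 tables of 12 arrays. Beside it the authors deposited the bead count, the standard error of the bead signal and a detection p-value in steps of 770 control beads. Per the submitters' processing notes GenomeStudio was used. The authors also deposited processed intensity values, made by steps not given in the sources used.

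Intensities were background-corrected with neqc (limma 3.58.1, R 4.3.3, offset 16) and quantile-normalized within each table, then put on the log2 scale. Probes with 1 symbol (30113; 8 had several and 17110 had none listed) and a detection p under 0.05 on at least 3 of 24 arrays were tested. The 4 groups of a table shared 1 fit (lmFit, eBayes, 8 residual degrees of freedom), with Benjamini-Hochberg adjustment over 19171 probes and a call at 0.05. Differences between lines of a table were interaction contrasts. Where no array of a group detected a probe, its fold is a bound: the brighter mean against, per array, the higher of the probe's own and the lowest detected signal. For related genes the brightest tested probe was used, and at most 4 called genes per list and line, those of largest change, were eligible to be named. A gene eligible in 1 line could be given in its other lines too. IGF1R, IGFBP1, MMP2 and the untested IGF1, IGF2 and INS were named outside this rule. The number of arrays limits the precision. The IGFBP genes and the lists were chosen with earlier results of these data known. The script was tested on simulated data. Replicate numbers were shared by groups, but correlations of same-numbered arrays were -0.067 to 0.078 in 12 pairs, so no pairing was assumed. Alternatives covered background, scaling, filter, probe choice, fit and omitted arrays. Promoter sequences and positions are from RefSeq on GRCh38.p14.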

Additional observations from a re-analysis of the deposited data

Results flagged for a closer look

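The differences between 2 lines of a table in the change, resistant minus sensitive, drew attention because the test of the difference itself passed (limma, Benjamini-Hochberg over all probes). For SCC-25 minus Cal-27 they were 1.59 and 1.68 at the 2 probes of IGFBP3, -1.88 for IGFBP4 and 2.62 for IGFBP6, with adjusted p between 1.87e-07 and 1.69e-05. Resistant Cal-27 cells were near background for IGFBP6, so the size of its difference is not fixed. Under 2 alternatives it was 1.357 to 2.527, and that of IGFBP4 was -2.017 to -1.106. IGFBP3 rose in SCC-25 and fell in Cal-27, and IGFBP4 did the reverse, each with all 3 resistant arrays on one side of the sensitive arrays.

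For FaDu minus SQ20B they were 2.86 and 1.98 for IGFBP5, 1.97 and 2.33 for IGFBP3, -2.41 for IGFBP6, 0.95 for IGFBP2, 0.87 for IGFBP7 and 0.71 for IGFBP4. Sensitive cells were at or near background for IGFBP5, so the size of its 2 differences is not fixed. Adjusted p was highest for IGFBP4 (0.0343) and IGFBP2 (0.0297), and both genes were near background in SQ20B. Groups of 3 arrays were not tested for outliers.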

How the results depend on the processing

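Over 592 recomputed values of single probes, 569 kept their side of the threshold with no change of sign, 9 lost a call, 4 gained one and 10 turned sign, none of them called. The values that turned were those of IGFBP6 in SCC-25 (-0.035 with median scaling, -0.033 without sensitive replicate 1, -0.022 without resistant replicate 1), IGFBP4 in SQ20B (0.020 with median scaling, 0.059 without sensitive replicate 1), IGFBP2 in SQ20B (-0.047 without sensitive replicate 1, -0.265 without resistant replicate 1) and IGFBP5 at ILMN_1750324, in Cal-27 (0.029 without sensitive replicate 1) and for parental SCC-25 minus Cal-27 (0.016 without background correction, 0.011 with median scaling). When 1 array was left out, these changes ranged over -0.033 to 0.078 for IGFBP6 in SCC-25, -0.428 to 0.029 for IGFBP5 in Cal-27, -0.265 to 0.198 for IGFBP2 in SQ20B and -0.274 to 0.059 for IGFBP4 in SQ20B. The counts of called IGFBP probes when 1 array was left out were 3 to 4 (SCC-25), 5 (Cal-27), 8 (FaDu) and 6 (SQ20B). Over all probes they were 4529 to 4970, 4870 to 5145, 6505 to 6854 and 9150 to 9373 in the same order. With the replicate block, IGFBP7 in SCC-25 lost its call (0.291, limma adjusted p = 0.0914), as with the 6 arrays of the line alone (0.291, adjusted p = 0.110), and the block changed no other call of an IGFBP probe. Same-numbered arrays did not deviate together. IGFBP2 in SCC-25 gained a call without background correction (0.328), with an offset of 50 (0.396) and with an intensity trend and robust prior (0.45). Median scaling took the call from IGFBP4 for FaDu minus SQ20B (0.616, adjusted p = 0.0508), and no background correction took it from parental IGFBP5 at ILMN_1750324 for FaDu minus SQ20B (0.183). Slide as a block was not run because the files name no slide. Signal over background limits IGFBP5 in the sensitive cells, IGFBP2 in Cal-27 and SQ20B, IGFBP4 in SQ20B, and IGFBP6 in resistant Cal-27 cells.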
